A study of Mus musculus with 32 samples.

Results

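Interleukin-6, its relatives and the genes that carry and stop their signal were followed in mouse liver after lipopolysaccharide (LPS), the endotoxin of Gram-negative bacterial envelopes. The set was chosen by name, with earlier results of these data known, and holds 10 genes. They are the ligands Il6, Lif and Osm and the receptor chains Il6ra, Osmr and Il6st. The others are the transcription factor Stat3 and the inhibitors Socs1, Socs3 and Cish. A probe carrying the name was found for 9 of the 10, all 9 passed the filter on dim probes, and they are 9 of the 19226 genes tested. Lif had no probe under its name and has no value here. Total liver RNA of 32 mice was hybridised to 1-colour arrays, 1 array per mouse, in a series on the role of the transcription factor E2F1 in the innate response to systemic LPS. The groups were wild type (E2F1+/+, strain given as B6x126 F2) on saline (6 mice), 6 h after LPS (4) and 20 h after LPS (6), and E2F1-/- (strain given as B6;129 followed directly by E2F1-/-) on saline (6), 6 h after LPS (4) and 20 h after LPS (6). The saline mice of both genotypes carry a 20 h label, which means that 6 h LPS and saline livers were also taken at different times. Sex, age, LPS dose and the deleted part of E2f1 are not given in the sources used here. The 2 genotypes carry different strain names, so genotype and strain cannot be told apart.

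Interleukin-6 and oncostatin M are secreted by stimulated macrophages and other cells. Each uses a private receptor chain (Il6ra, Osmr) together with the shared chain gp130, encoded by Il6st. Janus kinases at the receptor phosphorylate STAT3, and in hepatocytes STAT3 switches on the acute-phase plasma proteins. The SOCS proteins close the loop: Socs3 binds gp130 and Socs1 the kinases, while Cish is best known as a target and brake of STAT5 signals such as those of growth hormone. In RNA from whole liver, a change in the number of cells of a type and a change in RNA per cell cannot be told apart.

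Osm (chr11:4236785-4241026) and Lif (chr11:4257568-4272514) are neighbours in RefSeq (GRCm38.p6), and the other members lie apart from each other. RefSeq windows of 300 bases, from 250 before to 50 after the transcript start, were found for 9 of the 10 genes (not for Osm). They were searched on both strands for the STAT letters TTCNNNGAA, the NF-kB letters GGANTTTCC and the AP-1 letters TGANTCA. Among the 9 windows, the STAT letters were in those of Socs3 (1 match) and Cish (2 matches), the NF-kB letters in that of Il6, and the AP-1 letters in those of Il6, Lif and Osmr. Of all 32851 windows in the table, 8.30% held the STAT letters, 0.457% held them at least 2 times, 1.25% held the NF-kB letters and 7.81% the AP-1 letters. The windows of Il6ra, Il6st, Stat3 and Socs1 held none of the 3, which says only that these letters are not in these bases. The sequences below, from the gene's own strand, are those of the cytokine and of the 2 inhibitors whose windows hold STAT letters, with every match in capitals.
Il6, chr5:30012864-30013113, plus strand, bases -250 to -1: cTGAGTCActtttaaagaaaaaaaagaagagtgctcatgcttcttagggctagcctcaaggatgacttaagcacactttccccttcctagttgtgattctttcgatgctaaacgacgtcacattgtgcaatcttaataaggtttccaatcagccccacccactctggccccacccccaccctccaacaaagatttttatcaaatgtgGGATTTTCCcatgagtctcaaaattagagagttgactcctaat
Socs3, chr11:117969367-117969616, minus strand, bases -250 to -1: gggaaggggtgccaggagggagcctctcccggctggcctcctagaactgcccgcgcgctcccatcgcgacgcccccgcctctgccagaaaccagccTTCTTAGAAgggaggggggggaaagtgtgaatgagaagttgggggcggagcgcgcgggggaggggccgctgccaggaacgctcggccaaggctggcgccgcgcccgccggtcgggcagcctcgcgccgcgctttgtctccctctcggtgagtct
Cish, chr9:107296479-107296678, plus strand, bases -180 to 20: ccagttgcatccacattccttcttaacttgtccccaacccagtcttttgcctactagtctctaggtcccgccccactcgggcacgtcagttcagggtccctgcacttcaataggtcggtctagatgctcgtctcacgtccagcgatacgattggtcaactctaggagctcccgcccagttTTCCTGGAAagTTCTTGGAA
In Il6 the capitals mark AP-1 letters at -249 to -243 and NF-kB letters at -43 to -35. In Socs3 they mark STAT letters at -154 to -146. In Cish they mark STAT letters at 1 to 9 and again at 12 to 20, just inside the transcript. A match is a description of letters, and no binding was measured.

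Levels are given as log2 of the processed probe signal minus log2 of the array's 75th percentile, so 0 is the level of the 75th percentile. The 75th percentile itself ranged from 282 to 1138 signal units, and between 20203 and 28891 spots were well above background on each array. In 2 libraries the members went against the labels. In the library labelled E2F1-/- saline replicate 1, 8 of 9 members were the highest of their group, with Socs3 at 7.69. In the library labelled E2F1-/- LPS 6 h replicate 1, all 9 were the lowest of their group, with Socs3 at 3.92. Both lie on slide 8 and were scanned on date 3 of 3, which holds no wild-type saline array. Another library, E2F1-/- LPS 20 h replicate 4, was the lowest of its group for 6 of 9 members. Summed neutrophil markers went the same way, at 325 times the 75th percentile in the saline library against a group median of 3.10, and at 9.43 in the 6 h library against 188. The members' results are given with all arrays and without the first 2 libraries, and without all 3 where that changes a count. These libraries were picked after seeing the members' levels. P-values and counts without them are therefore not independent of that choice and add no support. For how many of all genes these arrays were highest or lowest was not counted. The E2f1 probe read -3.36 ± 1.01 (SD, n = 6) in saline liver of wild-type mice. In that of E2F1-/- mice it read -3.23 ± 0.81 (SD, n = 6). At 20 h of LPS it was higher in E2F1-/- than in wild type by 3.51 (SE 0.58, adjusted p = 0.00361), with 1 wild-type array left out as an outlier spot. Since the deleted part is not given, this probe does not check the genotype. The labels call the tissue liver and the extraction protocol lung: all 4 hepatocyte markers on the array were above background on every array, with a summed median of 1609 times the 75th percentile in wild-type saline liver. Of the 6 lung epithelium markers, Sftpc and Sftpb were above background on no array, while Sftpa1 and Sftpd were above it on every LPS array. The summed median of the 6 went from 0.172 in wild-type saline liver to 1.34 at 20 h. Of the 3 lung markers tested 2, Sftpa1 and Sftpd, rose in wild type at 6 h and in both genotypes at 20 h. In wild type at 20 h they rose by 4.52 (SE 0.58) and 3.08 (SE 0.67). Of all genes, 12.5% rose in wild type at 6 h, and 16.5% in wild type and 11.7% in E2F1-/- at 20 h. The part of these markers in the members' results was not tested.

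LPS raised the message of interleukin-6, the cytokine that drives the acute-phase response, at both times and in both genotypes. On saline the wild-type Il6 level was -5.78 at the lowest, -3.89 in the median and -3.06 at the highest, and 4 of 6 arrays were above background. At 6 h of LPS the 4 wild-type arrays read -0.59, 0.95, 0.15 and -0.06, all above every saline array. At 20 h they ran from -0.99 through a median of -0.60 to 0.81, again with no overlap. The change was 4.22 at 6 h (SE 0.93, adjusted p = 0.00103, 18.6-fold) and 3.76 at 20 h (SE 0.83, adjusted p = 0.000793, 13.5-fold). Summed neutrophil markers moved with it, from 2.31 to 9.48 times the 75th percentile in wild-type saline liver to 55.7 to 96.9 at 6 h and 53.5 to 133 at 20 h. Of the 9 such markers tested 8 rose in each of the 4 comparisons with saline. Of 8 Kupffer cell and macrophage markers, 1 rose and 1 fell in wild type at 6 h and none was called in E2F1-/- (1 rose and 1 fell without the 2 libraries). At 20 h 1 of these rose in each genotype, while 6 fell in wild type and 5 in E2F1-/- (4 without the 2 libraries). Of 4 monocyte markers, 3 rose at 20 h in each genotype; at 6 h 2 rose and 1 fell in wild type, and 1 rose in E2F1-/- (3 without the 2 libraries). Of all genes, 12.5% rose and 16% fell in wild type at 6 h, close to the Kupffer cell and macrophage counts there. The shares were 1.58% and 1.03% in E2F1-/- at 6 h, or 12.8% and 16.3% without the 2 libraries. At 20 h they were 16.5% and 20.1% in wild type. In E2F1-/- at 20 h they were 11.7% and 14.6%, or 16% and 18.9% without the 2 libraries. The part of neutrophils, macrophages and monocytes in the Il6 result was not tested.

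In E2F1-/- liver on saline, Il6 ran from -5.95 through a median of -4.75 to 0.98, the highest being replicate 1. At 6 h the arrays read -3.93 (replicate 1), 0.37, 0.67 and 0.45. Apart from those 2 replicates the groups did not overlap. The change at 6 h was 3.39 (SE 0.93, adjusted p = 0.0483), and 5.49 (SE 0.57, adjusted p = 3.19e-08) without the 2 libraries. At 20 h the lowest, median and highest levels were -2.19, -0.10 and 0.05, a change of 3.58 (SE 0.83, adjusted p = 0.00214), or 4.57 (SE 0.47, adjusted p = 3.9e-08) without the 2 libraries. The array at -2.19 was replicate 4, and the other 5 lay between -0.23 and 0.05. Il6 was read by 10 spots per array, whose SD within an array had a median of 0.187, against an SD between mice of 0.64 to 2.59 over the 6 groups. The SD between mice was 0.98 in place of 2.59 in E2F1-/- saline liver without the 2 libraries. It was then 0.153 in place of 2.22 in E2F1-/- liver at 6 h, from the 3 mice left. Each level is the mean of the 10 spots, so the SD of single spots is not the error of a level.

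Osm, which encodes the myeloid cytokine oncostatin M, was dim in every group. Wild-type saline levels ran from -5.60 through -4.75 to -4.53, with 3 of 6 arrays above background. At 6 h of LPS they were -3.07, -3.37, -3.05 and -4.30, the last not above background. At 20 h they ran from -4.43 through -4.04 to -2.36. Both LPS groups lay above every saline array, but neither change passed the test with all arrays: 1.5 (SE 0.58, adjusted p = 0.0521) at 6 h and 1.14 (SE 0.52, adjusted p = 0.0831) at 20 h. Without the 2 libraries, which narrows the common estimate of spread, both passed, with adjusted p-values of 0.00706 and 0.0170. The E2F1-/- changes were 1.01 at 6 h and 0.87 at 20 h (SE 0.58 and 0.52, adjusted p = 0.324 and 0.223), and 2.15 and 1.31 (adjusted p = 0.00105 and 0.0116) without the 2 libraries. With normexp background correction the wild-type differences were -0.06 at both times (adjusted p = 0.952 and 0.940). A second Osm probe was above background on 1 of 32 arrays.

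Among the receptor chains, that for oncostatin M was above saline at both times, and gp130 rose in wild type at 6 h and was not called at 20 h. Osmr in wild-type liver read -1.03, -0.57 and -0.43 (lowest, median, highest) on saline. At 6 h it read 2.51, 3.37, 3.03 and 3.26, and at 20 h it ran from 1.99 through 2.54 to 3.05. The wild-type saline and LPS groups were far apart, by 3.69 at 6 h (SE 0.60, adjusted p = 4.79e-05, 12.9-fold) and 3.15 at 20 h (SE 0.54, adjusted p = 4.04e-05, 8.90-fold). Osmr in E2F1-/- liver ran from -0.88 through -0.45 to 2.91 on saline, read -0.06, 2.89, 3.30 and 3.21 at 6 h, and ran from 0.13 through 2.45 to 2.71 at 20 h. The changes were 2.26 (SE 0.60, adjusted p = 0.0465) and 2.02 (SE 0.54, adjusted p = 0.00588), and without the 2 libraries 3.63 (SE 0.39) and 2.59 (SE 0.32). The second Osmr probe gave 3.52 (SE 0.66) and 2.94 (SE 0.59) in wild type. In E2F1-/- it gave 1.54 at 6 h (adjusted p = 0.167), which missed the threshold, and 1.84 at 20 h (adjusted p = 0.0211).

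Il6ra, the chain that binds interleukin-6 itself, had wild-type saline levels from -0.66 through -0.57 to -0.30. At 6 h of LPS it read 0.40, 0.20, 0.72 and 0.06, all above saline. At 20 h it was back, from -0.76 through -0.56 to 0.43. The 6 h change of 0.87 (SE 0.34) just missed the threshold (adjusted p = 0.0534) and passed it without the 2 libraries (adjusted p = 0.0166). A second probe named Il6ra gave 1.04 (SE 0.37, adjusted p = 0.0328). The E2F1-/- arrays at 6 h read -0.69, 0.88, 0.91 and 0.70 against a saline median of -0.57, a change of 0.86 (SE 0.34, adjusted p = 0.134), or 1.43 (adjusted p = 0.000897) without the 2 libraries. At 20 h the differences from saline were 0.09 (SE 0.30) in wild type and 0.01 (SE 0.30) in E2F1-/-.

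Il6st encodes gp130, the signalling chain that both cytokines share. In wild type it read 2.26, 2.61 and 2.78 (lowest, median, highest) on saline and 3.04, 3.33, 3.33 and 3.31 at 6 h, with no overlap. The rise was 0.68 (SE 0.24, adjusted p = 0.0357, 1.60-fold). Over 24 alternatives in processing, model and samples its adjusted p ran from 0.00493 to 0.173, so the call did not hold in all of them. The 20 h levels of 2.18, 2.67 and 3.0 covered the saline range, a difference of 0.05 (SE 0.22). For E2F1-/- mice the 6 h arrays read 2.14, 3.35, 3.43 and 3.58 against saline levels of 2.22 to 3.24, a difference of 0.45 (SE 0.24, adjusted p = 0.289), or a rise of 0.87 (SE 0.22, adjusted p = 0.00294) without the 2 libraries.

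Stat3, the transcription factor that carries the signal and one of its own targets, rose at both times in both genotypes. Wild-type levels were 2.49, 3.42 and 3.63 on saline (lowest, median, highest), 5.27, 5.43, 5.64 and 6.01 at 6 h, and 3.97, 4.79 and 5.64 at 20 h. No LPS array overlapped saline. The rises were 2.35 at 6 h (SE 0.51, adjusted p = 0.00093, 5.09-fold) and 1.53 at 20 h (SE 0.46, adjusted p = 0.00954, 2.90-fold). E2F1-/- levels were 2.59, 3.26 and 5.61 on saline, 3.39, 5.86, 6.19 and 6.10 at 6 h, and 3.47, 5.20 and 5.58 at 20 h. The rises were 1.84 (SE 0.51, adjusted p = 0.0494) and 1.41 (SE 0.46, adjusted p = 0.0229), and 2.92 (SE 0.39) and 1.83 (SE 0.33) without the 2 libraries. With slide as a block both E2F1-/- rises missed the threshold (adjusted p = 0.161 at 6 h and 0.057 at 20 h). Stat3 was also read by 10 spots per array, whose SD had a median of 0.0362.

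The inhibitor Socs1 had the largest change of the 9 genes in each of the 4 comparisons with saline, with all arrays and without the 2 libraries. Socs1, which blocks the Janus kinases and is also induced by interferons, stood in wild type on saline at -2.45, -1.56 and 2.03 (lowest, median, highest). At 6 h it read 6.62, 7.39, 6.67 and 7.28, all above saline. The change was 8.10 (SE 1.34, adjusted p = 5.55e-05, 274-fold). At 20 h the levels spread from 1.84 through 5.18 to 6.45, a rise of 5.65 (SE 1.2, adjusted p = 0.000497), and the lowest array lay just under the single high saline array, replicate 5 at 2.03. Socs1 in E2F1-/- liver ran from -1.98 through -0.95 to 6.37 on saline, read 1.07, 5.64, 6.60 and 6.65 at 6 h, and ran from 0.70 through 5.31 to 6.90 at 20 h. The rises were 4.98 (SE 1.34, adjusted p = 0.0466) and 4.86 (SE 1.2, adjusted p = 0.00333), and 7.56 (SE 1.05) and 6.13 (SE 0.87) without the 2 libraries.

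Socs3, the inhibitor that docks on gp130, read 1.28, 2.81 and 3.76 in wild type on saline and stood within a narrow band at 6 h, at 7.49, 7.56, 7.93 and 7.51. At 20 h it ran from 5.12 through 6.15 to 6.70, between the other wild-type groups and overlapping neither. The rises over saline were 5.05 (SE 0.91, adjusted p = 0.000143, 33.1-fold) and 3.42 (SE 0.82, adjusted p = 0.0016). Among E2F1-/- mice the saline arrays ran from 0.82 through 1.91 to 7.69, the 6 h arrays read 3.92, 7.65, 7.44 and 7.49, and the 20 h arrays ran from 3.45 through 6.41 to 6.54. The rises were 3.84 (SE 0.91, adjusted p = 0.0454) and 3.12 (SE 0.82, adjusted p = 0.00547), and 5.72 (SE 0.62) and 4.10 (SE 0.52) without the 2 libraries.

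Cish, the STAT5-linked inhibitor, rose in wild type at 6 h and was not called at 20 h. In wild type it read 0.59, 2.30 and 2.68 on saline, 4.4, 4.75, 4.83 and 4.07 at 6 h, and 0.00, 1.92 and 3.18 at 20 h. The 6 h arrays lay above all the others, a rise of 2.62 over saline (SE 0.71, adjusted p = 0.00575, 6.15-fold). Its 20 h difference from saline was -0.06 (SE 0.63, adjusted p = 0.951). Cish in E2F1-/- liver ran from -0.51 through 2.68 to 5.29 on saline, read 3.70, 4.99, 5.03 and 5.54 at 6 h, and ran from 1.67 through 2.78 to 4.34 at 20 h. The 6 h difference was 2.08 (SE 0.71, adjusted p = 0.0869), or 2.96 (SE 0.71, adjusted p = 0.00194) without the 2 libraries, and the 20 h difference was 0.13 (SE 0.63) or 0.64 (SE 0.59). With slide as a block the wild-type rise at 6 h was 1.84 (adjusted p = 0.137).

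**Figure D1:**
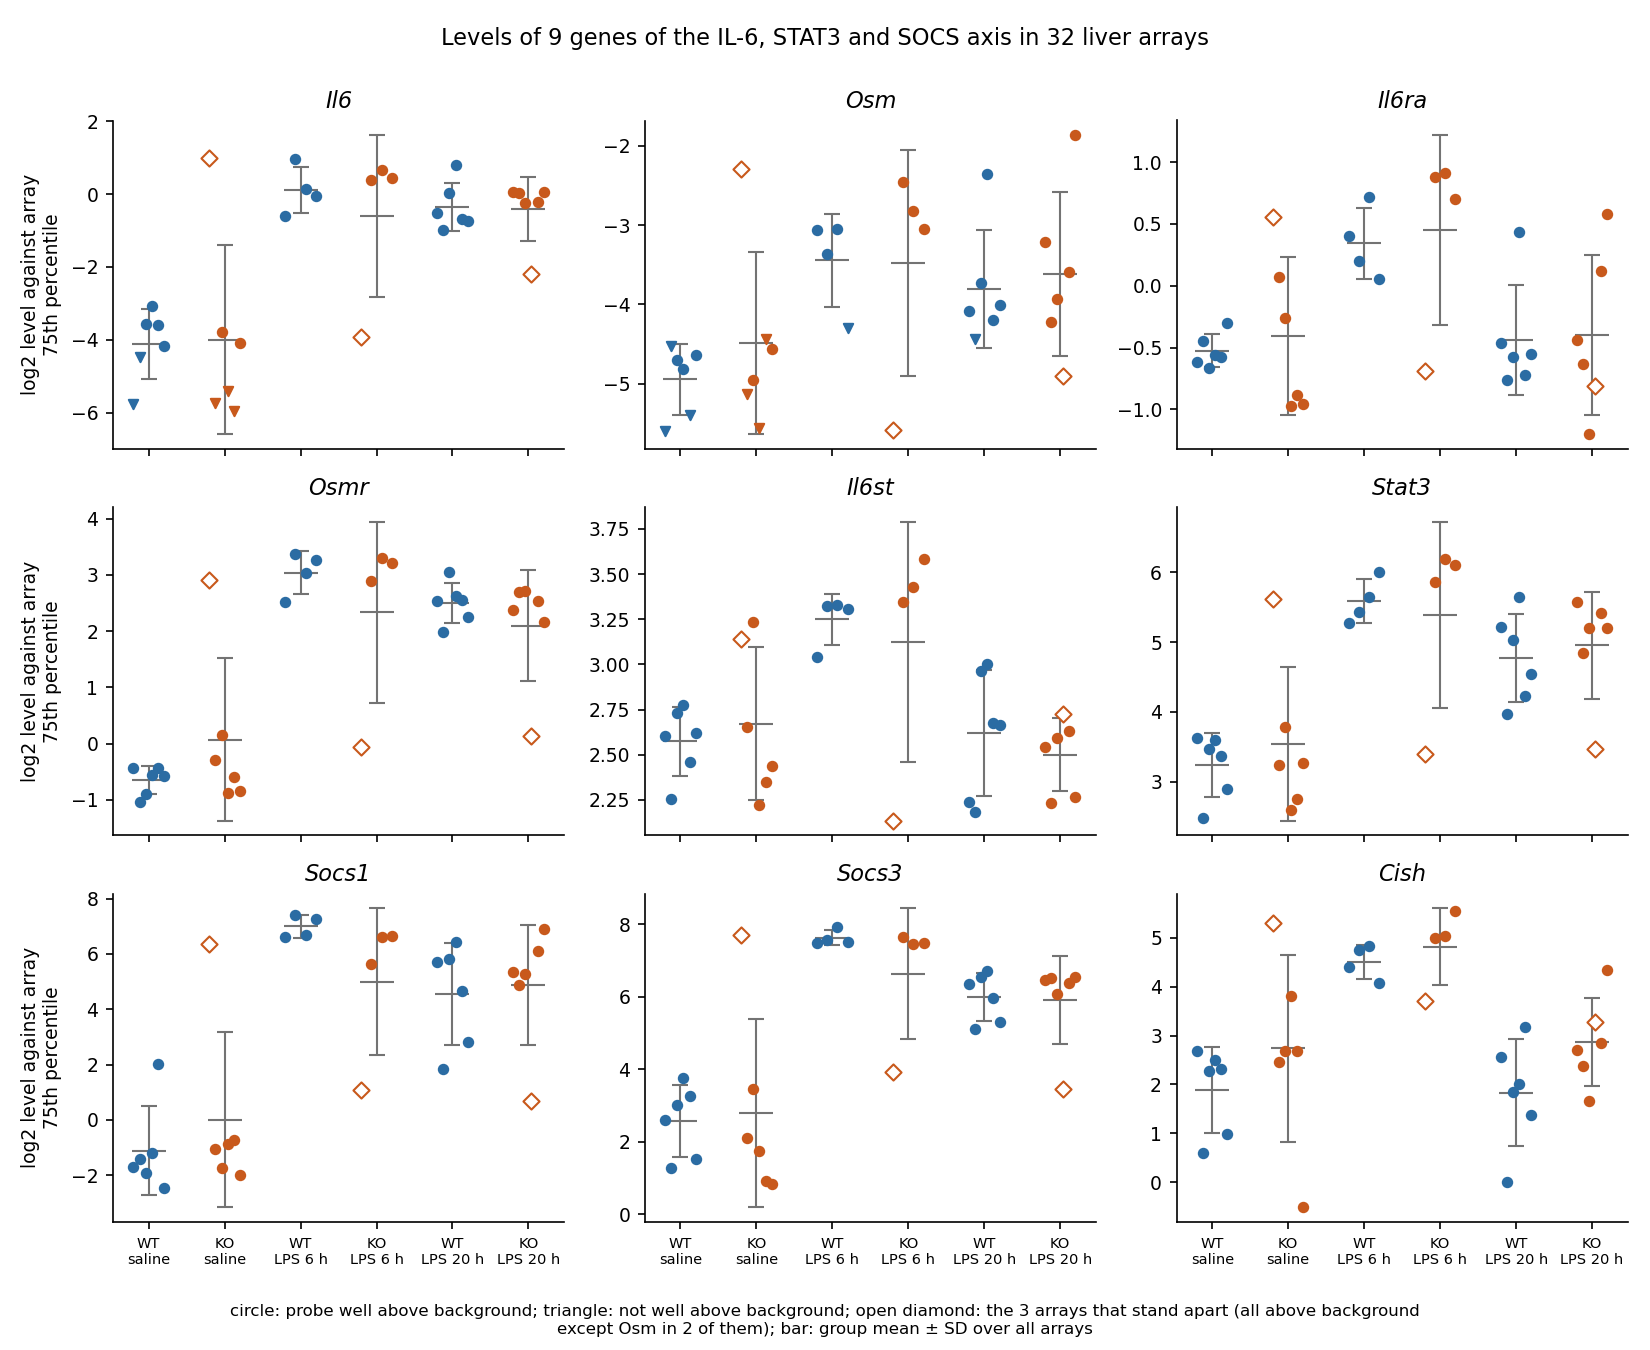
Log2 level of each of the 9 genes (vertical axis, against the array's 75th percentile, with its own range per panel) in each array of the 6 groups (horizontal axis), blue for wild type and orange for E2F1-/-; the bars are the group mean ± SD over all arrays, triangles are arrays where the probe was not well above background, and open diamonds are the 3 arrays that stand apart. In E2F1-/- saline the open diamond is the highest point in 8 of 9 panels, and in E2F1-/- LPS 6 h it is the lowest in all 9.

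The members were chosen with earlier results of these data known, so the shares of all genes below are a background and no test of the set. Counted together, 7 of 9 members rose in wild type at 6 h (all but Il6ra and Osm) and none fell. Of all genes 12.5% rose there and 16% fell. Without the 2 libraries 9 of 9 rose, against 14.2% of all genes. In E2F1-/- liver at 6 h, 5 of 9 rose (Il6, Osmr, Stat3, Socs1 and Socs3), against 1.58% of all genes rising and 1.03% falling, and 9 of 9 without the 2 libraries, against 12.8%. These 5 calls had adjusted p-values between 0.0454 and 0.0494, and leaving out any single E2F1-/- array of the comparison other than its 2 replicates 1 took the count to 0. At 20 h the same 5 genes rose in wild type, against 16.5% of all genes rising and 20.1% falling, and again in E2F1-/-, against 11.7% rising and 14.6% falling. Without the 2 libraries Osm joined them in both genotypes, 6 of 9 against 18.9% in wild type and 16% in E2F1-/-. The median change over the 9 members was 2.62 and 2.08 at 6 h and 1.53 and 1.41 at 20 h (wild type, E2F1-/-), beside medians over all genes of 0.01, -0.02, -0.02 and -0.09. Within scan dates, all 14 differences of the members called in wild type at 6 h had the sign of the pooled value. In E2F1-/- at 6 h, 10 of 15 did, and the other 5 are those of scan date 3, where replicate 1 is the only 6 h array. The 14 wild-type signs add no support. For these genes every wild-type 6 h array lay above every saline array, so no other sign was possible. They come from scan dates 1 and 2, with 1 wild-type 6 h array each. Scan date 3 holds the other 2 and no wild-type saline array.

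**Figure D2:**
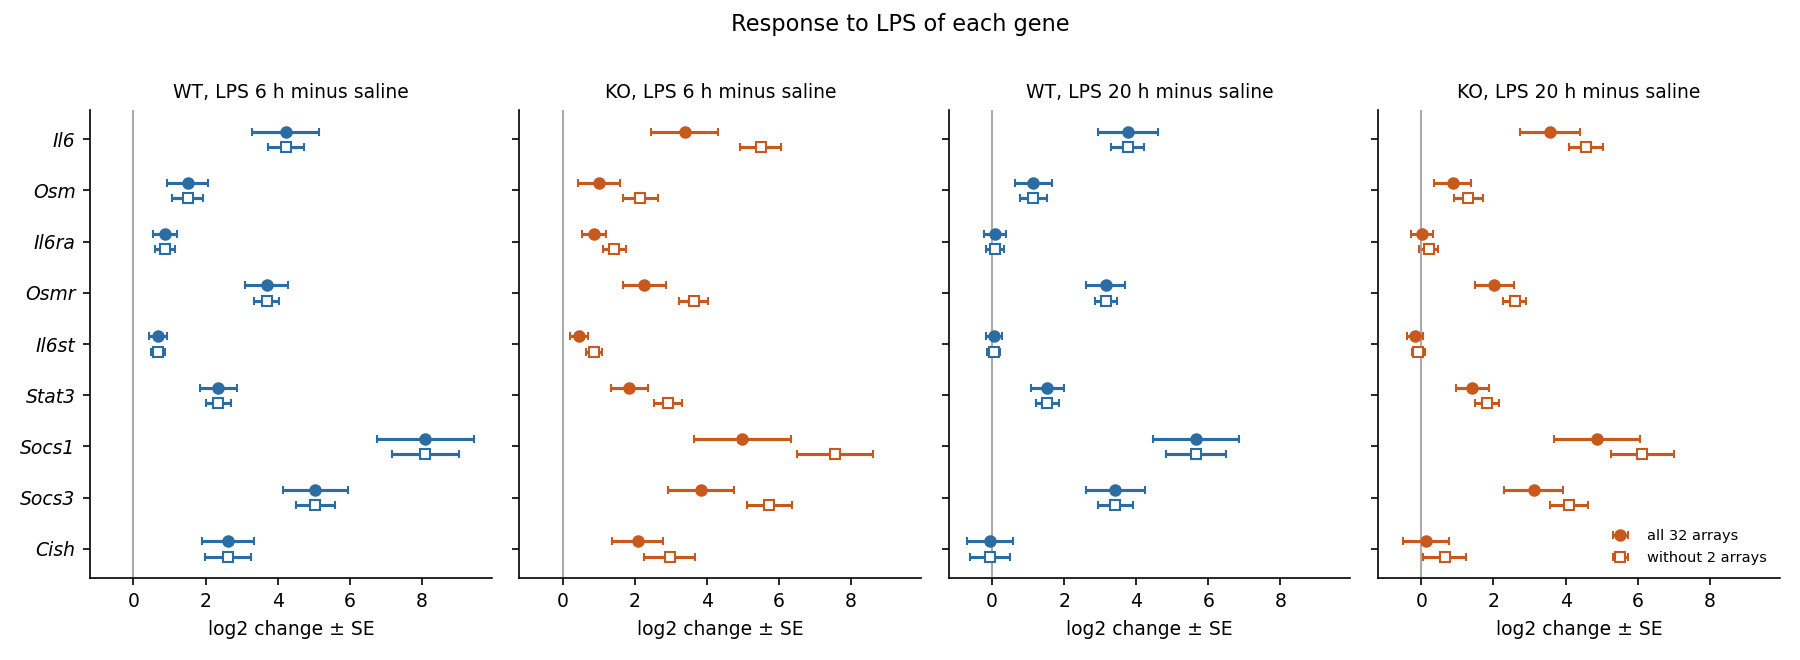
Log2 change over saline with its standard error (horizontal axis) for each gene (vertical axis) at 6 h and 20 h of LPS in wild type (blue) and E2F1-/- (orange), from all 32 arrays (filled circles) and without the 2 arrays (open squares). In E2F1-/- at 6 h the open squares lie to the right of the circles for every gene, as for Socs1 at 7.56 against 4.98.

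Between 6 h and 20 h in wild type, 2 of 9 members fell, near the background of 17.2% of all genes: Il6st by 0.63 (SE 0.24, adjusted p = 0.0437) and Cish by 2.68 (SE 0.71, adjusted p = 0.00391). With slide as a block neither fall passed (adjusted p = 0.0585 for Il6st and 0.0861 for Cish). Without the 2 libraries 5 of 9 fell, against 19.6%, with Il6ra (-0.78), Socs1 (-2.45) and Socs3 (-1.63) added. With all arrays Il6 differed by -0.46 (SE 0.93, adjusted p = 0.733) and Osmr by -0.54 (SE 0.60, adjusted p = 0.512) between the times, neither of them called. Whether members differ from each other in this change was not tested.

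In E2F1-/- liver none of the 9 was called between 6 h and 20 h with all arrays, against 8.33% of genes falling; 3 of 9 had an unadjusted p under 0.05. Without the 2 libraries 5 of 9 fell, against 10.9%: Il6ra by 1.23, Il6st by 0.95, Osmr by 1.03, Stat3 by 1.1 and Cish by 2.32 (adjusted p between 0.00163 and 0.0491). Without all 3 libraries, 3 of 9 fell in E2F1-/- and 6 of 9 in wild type, where Stat3 (-0.81) joined. The 3 in E2F1-/- were Il6ra, Il6st and Cish. At 20 h these genes differed from saline by 0.09, 0.05 and -0.06 in wild type and, without the 2 libraries, by 0.20, -0.08 and 0.64 in E2F1-/-, none of them called.

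**Figure D3:**
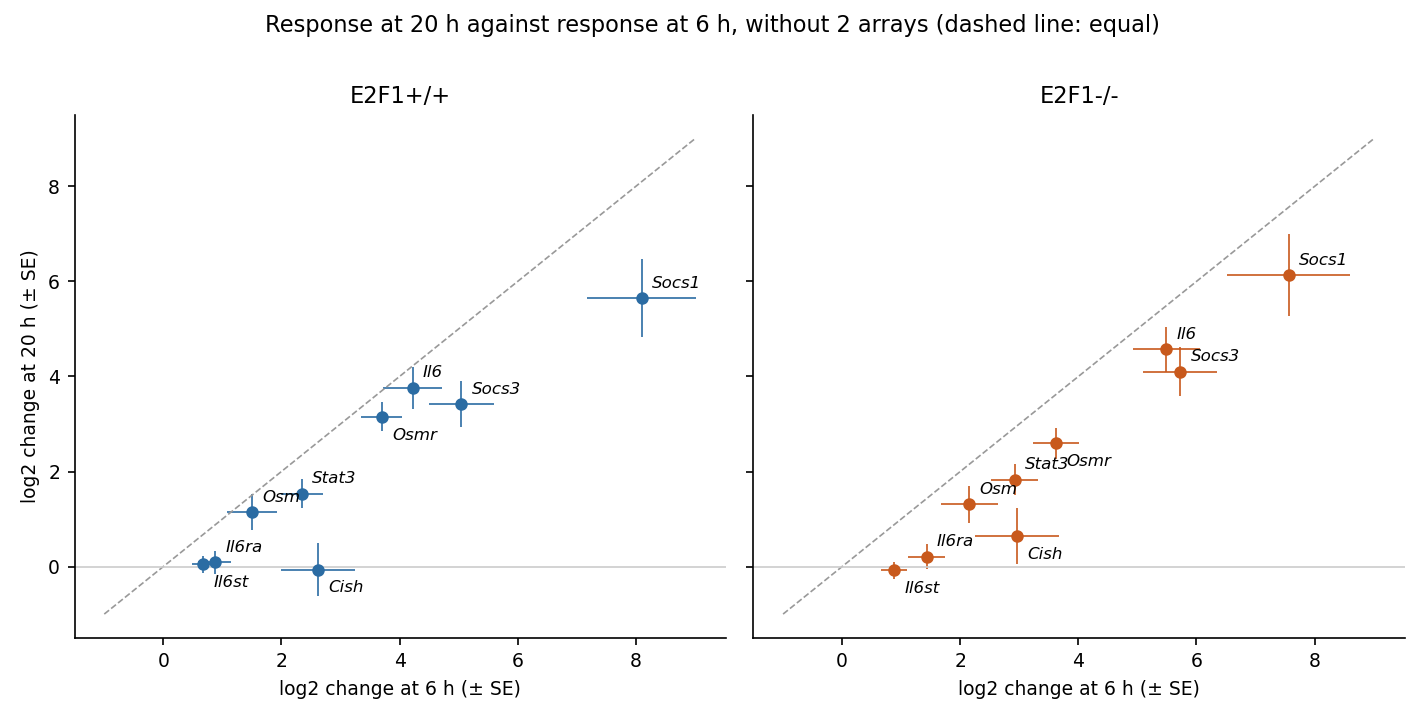
Log2 change over saline at 20 h (vertical axis) against that at 6 h (horizontal axis), each with its standard error, for the 9 genes in wild type and E2F1-/-, without the 2 arrays; the dashed line marks equal changes. All points lie below the line. Il6ra and Il6st lie close to 0 at 20 h in both genotypes, and Cish only in wild type. Il6 in wild type lies at 4.22 (6 h) and 3.76 (20 h).

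No member was called between the genotypes. On saline, at 6 h and at 20 h, 0 of 9 were called with all arrays, where 0.338%, 1.26% and 0.322% of all genes were, and 0 of 9 had an unadjusted p under 0.05. The counts without the 2 libraries were again 0, against 0.364%, 1.34% and 0.520%. The interaction of genotype and LPS was called for 0 of 9 at 6 h (0.125% of all genes, 0.151% without the 2 libraries) and for 0 of 9 at 20 h (0.0416% and 0.0572%), with no unadjusted p under 0.05 either. The intervals say how large a difference these arrays could miss. Without the 2 libraries the 95% interval of the E2F1-/- minus wild-type difference at 6 h was -0.83 to 1.60 for Il6, -0.38 to 1.31 for Stat3, -1.43 to 1.24 for Socs3 and -2.95 to 1.55 for Socs1. The narrowest was that of Il6st, -0.27 to 0.67. At 20 h Cish differed by 1.04 (95% interval -0.11 to 2.19 without the 2 libraries) and Socs1 by 0.33 (-1.37 to 2.03). Without all 3 libraries, the third being E2F1-/- LPS 20 h replicate 4, these were 0.96 (SE 0.59) and 1.16 (SE 0.70), so their order rests on that library. A missed threshold does not show equal levels.

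**Figure D4:**
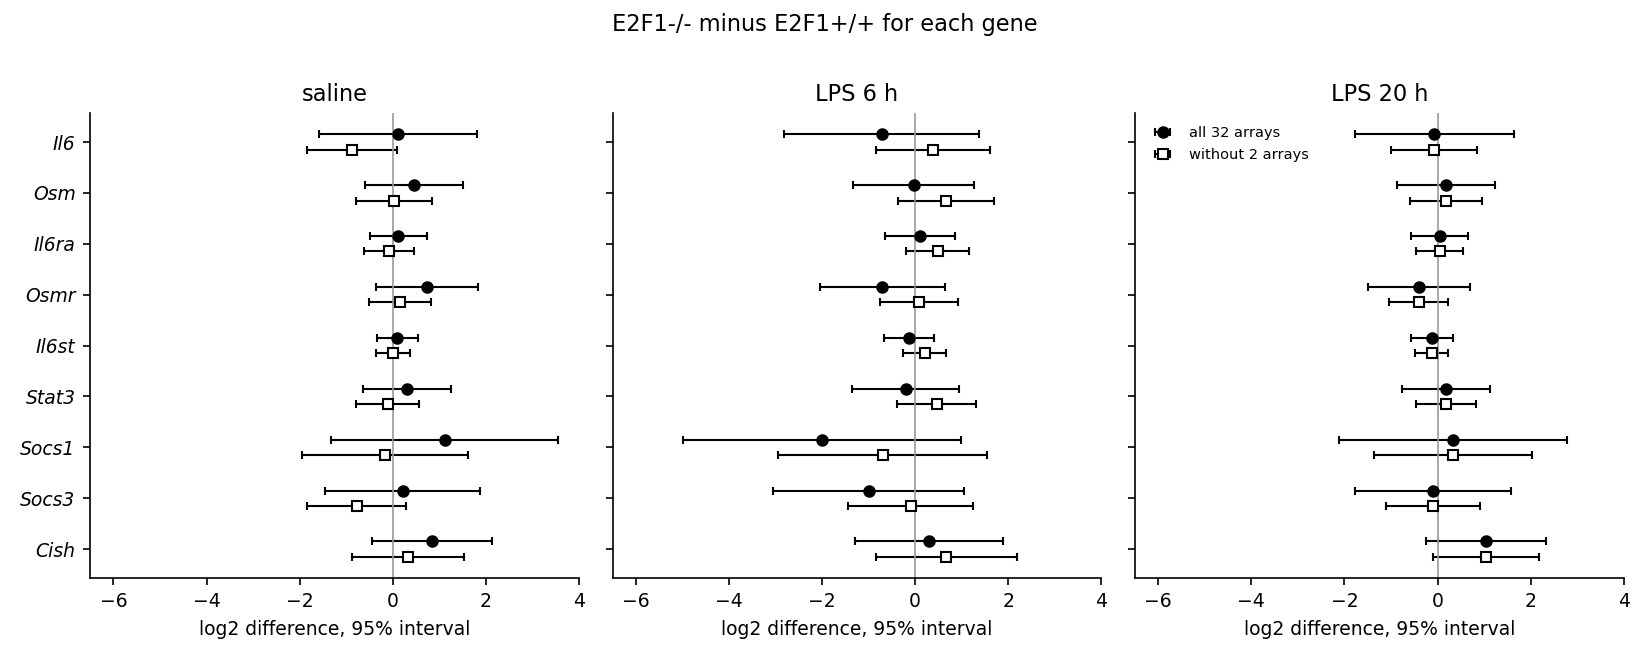
E2F1-/- minus wild-type log2 difference with its 95% interval (horizontal axis) for each gene (vertical axis) on saline, at 6 h and at 20 h of LPS, from all 32 arrays (filled circles) and without the 2 arrays (open squares). Every interval includes 0, and those of Socs1 are the widest, -5.00 to 0.99 at 6 h with all arrays.

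Both saline groups had the lowest means for Il6, Osm, Osmr, Stat3, Socs1 and Socs3, and wild type at 6 h was highest for each of these 6. For Il6st wild type at 6 h was also highest, while for Il6ra and Cish it was E2F1-/- at 6 h. These orders are from all arrays. Without the 2 libraries the E2F1-/- 6 h mean exceeded the wild-type mean for Il6 (0.50 against 0.11) and Osm (-2.78 against -3.45). It also did so for Osmr (3.13 against 3.04), Stat3 (6.05 against 5.59) and Il6st (3.45 against 3.25). For Socs1 (6.30 against 6.99) and Socs3 (7.53 against 7.62) it stayed below. With all arrays, every pair of neighbours in each order overlapped in range. Some of these steps were still called above, such as that from E2F1-/- saline to E2F1-/- at 20 h for Osmr and Socs3.

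The rest of the pathway was read from lists of named genes, also chosen with earlier results of these data known. Their counts stand beside the shares of all genes called: 12.5% higher and 16% lower in wild type at 6 h, 1.58% and 1.03% in E2F1-/- at 6 h, 16.5% and 20.1% in wild type at 20 h, and 11.7% and 14.6% in E2F1-/- at 20 h. Leaving out the 2 libraries, the shares higher were, in the same order, 14.2%, 12.8%, 18.9% and 16%, and the shares lower 17.9%, 16.3%, 22.3% and 18.9%. Of 30 hepatocyte targets of interleukin-6 and STAT3, 23 rose in wild type at 6 h and 18 at 20 h, and none fell, with median changes of 1.77 and 1.34. Among them 9 rose in E2F1-/- at 6 h, or 27 without the 2 libraries, and 20 rose at 20 h. In wild type at 20 h, 24 rose and 1 fell without the 2 libraries. Lcn2, which binds iron-carrying siderophores, rose by 7.50 in wild type at 6 h (SE 1.29, adjusted p = 8.73e-05). Il1rn, the interleukin-1 receptor antagonist, rose by 7.40 (SE 1.30) and Steap4, a metalloreductase, by 5.58 (SE 1.05). At 20 h in E2F1-/- liver Lcn2 rose by 7.64 (SE 1.16), Il1rn by 6.19 (SE 1.16) and Saa3, a serum amyloid A, by 4.67 (SE 0.85). Of the 9 neutrophil markers tested 8 also rose in each comparison with saline, and the part of these cells in the list's rises was not tested.

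Genes that act before interleukin-6 were counted in the same way. Of 9 inducers of Il6, 8 rose in wild type at 6 h and 4 at 20 h. In E2F1-/- liver 1 rose at 6 h, or 8 without the 2 libraries, and 2 at 20 h. At 20 h, 6 rose in each genotype without the 2 libraries. Cd14, the LPS co-receptor, rose by 6.18 (SE 1.19) in wild type at 6 h, and the cytokines Tnf and Il1b by 5.45 (SE 0.95) and 5.33 (SE 0.91).

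Other cytokines and receptors of the family moved both ways. Of 8 other ligands tested, 1 rose in wild type at 6 h and 5 rose and 1 fell at 20 h. Ebi3, a subunit of interleukin-27, rose by 3.52 at 6 h (SE 0.65, adjusted p = 0.000169) and Il27, its partner, by 1.96 at 20 h (SE 0.43). Ctf1, cardiotrophin, fell by 1.43 at 20 h (SE 0.48). In E2F1-/- liver none of the 8 was called at 6 h and 2, Ebi3 (2.10) and Il27 (1.78), rose at 20 h. With the 2 libraries left out, 3 of the 8 rose in wild type at 6 h, and in E2F1-/- liver 2 rose and 1 fell at 6 h and 4 rose and 1 fell at 20 h. Of 5 other receptor chains none rose in the 4 comparisons with saline. Lifr, which receives leukaemia inhibitory factor, fell at 20 h by 3.24 in wild type (SE 0.42, adjusted p = 9.93e-07) and by 2.47 in E2F1-/- (SE 0.42, adjusted p = 8.73e-05). Il27ra fell in wild type by 1.16 at 6 h and by 1.66 at 20 h.

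Among the 4 Janus kinases, Jak2 rose by 3.08 (SE 0.49) and Jak1 by 0.76 (SE 0.19) in wild type at 6 h, while Tyk2 fell by 1.34 (SE 0.33). Of the 6 other STAT genes, 3 rose and 2 fell in wild type at 6 h. Stat5a was the single list gene called between genotypes: it differed by -1.59 (E2F1-/- minus wild type at 6 h, SE 0.30, adjusted p = 0.00658). Of 14 other inhibitors, 3 rose and 3 fell in wild type at 6 h, a share each way close to the 12.5% and 16% of all genes. Socs2, a growth hormone target, rose by 4.02 (SE 0.89), and the phosphatases Ptpn1 and Ptpn2 by 2.49 (SE 0.52) and 2.40 (SE 0.61). At 20 h 4 rose and 3 fell in each genotype. In E2F1-/- this was 6 and 3 without the 2 libraries.

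Of 7 growth hormone and STAT5 genes, 4 fell at 20 h against saline in each genotype, where 20.1% of all genes fell in wild type and 14.6% in E2F1-/-. Between 6 h and 20 h 4 fell in each, against 17.2% and 8.33%. At 20 h against saline, 4 fell and 1 rose in each genotype without the 2 libraries. Igfals, which carries circulating insulin-like growth factor, fell by 3.66 in wild type at 20 h (SE 0.50) and fell by 2.75 in E2F1-/- (SE 0.50). Prlr, the prolactin receptor, fell by 2.33 and by 1.82 (SE 0.28 each). Of the 4 hepatocyte markers 3 also fell at 20 h in each genotype (2 in E2F1-/- without the 2 libraries), and their part in these falls was not tested.

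**Figure D5:**
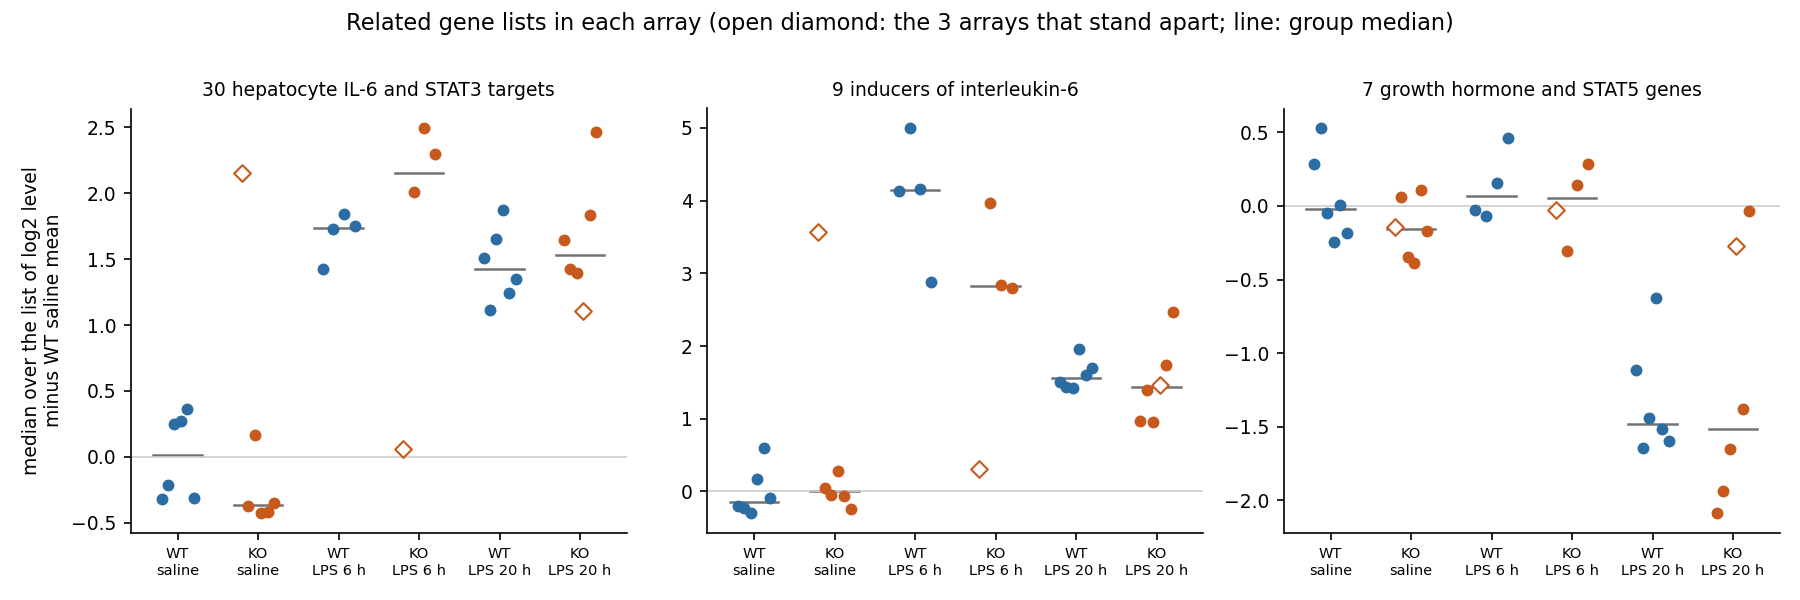
Median over each list of the log2 level minus the wild-type saline mean (vertical axis) in each array of the 6 groups (horizontal axis), for 30 hepatocyte targets, 9 inducers and 7 growth hormone and STAT5 genes, blue for wild type and orange for E2F1-/-; open diamonds are the 3 arrays that stand apart and lines are group medians. E2F1-/- saline replicate 1 sits at 2.15 in the targets panel, and E2F1-/- LPS 6 h replicate 1 at 0.06.

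The genes whose pattern lay nearest to a member's were found from the 5 differences of group means from wild-type saline. The measure was the root mean square difference in log2 units. The search ran over the 19226 genes tested, leaving out clone names, the members and genes with a missing value. Nearest to Il6 were Gzmb (0.297), Dgkh (0.310) and Nampt (0.364). Nearest to Osmr were Asb4 (0.138), Fosl2 (0.248) and Il10 (0.265). Stat3 had the closest neighbours of the 5 members searched, Tmem140 (0.116), Nfkbia (0.117) and Abca1 (0.128). Socs3 was followed by Tiparp (0.228), Nfkbiz (0.251) and Samsn1 (0.339), and near Cish lay Melk (0.329) and Coq10b (0.336). These means include the 2 libraries.

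Single mice tended to be high or low for many members at once. In wild type at 20 h replicate 2 was the lowest of 6 for all 9 members, and replicate 4 the highest for 7 of 9. That replicate 2 lies on slide 8 and was scanned on date 3, like the 2 libraries left out above. E2F1-/- LPS 20 h replicate 2 lies there too and was the lowest of its group for 1 of 9. In E2F1-/- at 20 h replicate 6 was the highest for 5 of 9. How often these arrays were highest or lowest over all genes was not counted, so this is not shown to be particular to the members.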

How the data were processed

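Liver RNA of 32 mice was read on Agilent 1-colour arrays, 1 array per mouse. The authors deposited scanner output with processed intensity per spot, background-subtracted by Feature Extraction 10.7.1.1 per the file headers, and a table of processed values found to be on a log2 scale, which the authors deposited without stating its scaling. Computed here: log2 processed signal minus the array's 75th percentile, control spots and outlier spots removed, spots of a probe averaged, and probes kept where well above background on at least 4 arrays (28373 probes). The brightest probe stood for a gene, 19226 genes in all. Groups came from the labels, and no array duplicated another.

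limma 3.58.1 in R 4.3.3 fitted 6 group means over 32 arrays, with Benjamini-Hochberg adjustment over all genes and an adjusted p of 0.05 as threshold. The code was tested on simulated data. Named genes were the members, the 3 called genes of each list with the largest change per comparison with saline, and the 3 nearest patterns; some genes that this rule names are not reported here. The members and lists were chosen with earlier results of these data known. Whether the mice are independent beyond being separate animals is not given. Replicate numbers did not pair the samples. Alternatives changed the background correction, scaling, probe filter, probe choice, blocks and samples.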

Additional observations from a re-analysis of the deposited data

Results flagged for a closer look

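In 20 of 54 groups of member levels (9 genes in 6 groups) the highest or lowest array lay far from the others by Dixon's criterion, where chance gives about 1 in 20 groups. Levels are log2 against the array's 75th percentile.

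E2F1-/- LPS 6 h replicate 1 was far below its group for Il6 (-3.93), Il6ra (-0.69), Il6st (2.14), Osmr (-0.064), Stat3 (3.39) and Socs3 (3.92). E2F1-/- saline replicate 1 was far above its group for Il6 (0.98), Osm (-2.30), Osmr (2.91) and Socs1 (6.37). E2F1-/- LPS 20 h replicate 4 was far below its group for Il6 (-2.19), Osmr (0.13), Stat3 (3.47), Socs1 (0.70) and Socs3 (3.45).

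In wild type, LPS 20 h replicate 4 was high for Il6ra (0.43) and Osm (-2.36). LPS 6 h replicate 1 was low for Il6st (3.04), LPS 6 h replicate 3 was high for Socs3 (7.93), and saline replicate 5 was high for Socs1 (2.03).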

How the results depend on the processing

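Counts are of the 9 members called. For E2F1-/- at 6 h (5 called) the count was 0 with normexp background correction, with no filter on dim probes, with slide as a block, with the replicate number as a block and with only the groups compared in the fit. It was 1 with quantile normalization, 3 in the deposited table and 9 without the 2 or the 3 libraries that stand apart, chosen after seeing the data. Leaving out 1 array at a time gave 0 to 9: 9 without E2F1-/- LPS 6 h replicate 1, 7 without E2F1-/- saline replicate 1 and 0 without any other. For E2F1-/- at 20 h (5 called) it was 3 with only the groups compared and 4 to 6 leaving out 1 array. For wild type, 20 h against 6 h (2 called), it was 1 with quantile normalization, median centring, the deposited table, no filter or the replicate block, 0 with slide as a block, 5 with only the groups compared or without the 2 libraries, 6 without the 3, and 1 to 3 leaving out 1 array. For E2F1-/-, 20 h against 6 h (0 called), it was 1 with scan date as a block, 5 without the 2 libraries, 3 without the 3, and 0 to 3 leaving out 1 array. Wild type had 6 to 9 calls at 6 h and 5 to 6 at 20 h over the alternatives run, and the genotype and interaction counts were 0 in each. The cause of these changes was not tested. Apart from splits by scan date that leave 1 array in a group, no called change turned its sign under these alternatives. Within scan date 3, where E2F1-/- at 6 h has 1 array, replicate 1, the 5 changes called there were negative: Il6 -1.73, Osmr -1.08, Stat3 -0.71, Socs1 -1.68 and Socs3 -0.79. The median of all genes in wild type at 6 h shifted by -0.23 with normexp, -0.13 with quantile normalization, -0.15 with median centring and 0.30 with no filter. The split of calls there was 2398 higher and 3072 lower, against 1901 and 3592 with median centring. Same-numbered arrays did not deviate together: 25 of 72 pairs correlated over 0.1, with a median of 0.01. Il6 on saline and Osm throughout lie near background, which limits their sizes.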
